A study of Mus musculus with 3 samples.

Results

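The aminoacyl-tRNA synthetase genes were followed in HoxA9-Meis1 AML cells, a mouse acute myeloid leukaemia line of C57Bl/6 origin named for the homeobox genes Hoxa9 and Meis1. The set held 36 genes, chosen by name from the 34827 gene names on the array. Of these, 20 encode the cytosolic enzymes and 16, whose symbols end in 2, the mitochondrial ones. Per the labels, the cells came from bone marrow and were kept for 24 h in SFEM medium. The untreated group received no compound, the group labelled A2 received 3.4 µM of Pyrydopyrazine A2, and the group labelled RA plus D3V received 10 µM of all-trans retinoic acid together with 10 µM of 1α-hydroxy vitamin D3. There was 1 Agilent one-colour array per condition, so every difference below compares single arrays, has no replicate check and carries no test across samples. How the line was made, how many clones it holds and the age of the donor mice are not given in the sources used here.

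Aminoacyl-tRNA synthetases join each amino acid to its own tRNA, which the ribosome then uses to read codons. Most amino acids have separate nuclear genes for the cytosolic and the mitochondrial enzyme, whereas Gars and Kars each make both forms and the bifunctional cytosolic Eprs charges glutamate and proline tRNAs. When amino acids run short, uncharged tRNA activates the kinase GCN2 (gene Eif2ak4), which favours translation of the transcription factor ATF4. ATF4 is known to induce amino acid transporters, asparagine synthetase and many of the cytosolic synthetase genes.

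ATF4 and its C/EBP partners bind a composite element written TGATGNAA, read here on both strands. RefSeq promoters, from 250 bases before to 50 after the start (GRCm38.p6), were given for 27 of the 36 genes. The element was present in 5 of 13 cytosolic and 0 of 14 mitochondrial promoters, and in 4.51% of the 27025 genes with a promoter. A match from each gene is shown because all 5 genes that hold one are cytosolic, with the match in capitals and 11 bases on either side, in the direction of the gene.
Aars, 10 bases into the transcript, plus strand, chr8:111033840-111033869: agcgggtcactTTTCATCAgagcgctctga
Gars, 30 bases before the start, plus strand, chr6:55037960-55037989: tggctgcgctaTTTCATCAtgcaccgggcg
Iars, 8 bases into the transcript, plus strand, chr13:49682126-49682155: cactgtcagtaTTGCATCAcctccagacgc
Tars, 15 bases before the start, minus strand, chr15:11399655-11399684: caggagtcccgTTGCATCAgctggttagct
Yars, 4 bases into the transcript, plus strand, chr4:129189895-129189924: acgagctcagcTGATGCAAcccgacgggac

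Of these 5 matched genes, Tars and Yars were at least 1.5-fold below the untreated array on both treated arrays. Aars and Gars were so on the array labelled RA plus D3V alone, and Iars on neither. Of the other cytosolic genes, with no match or no promoter given, Eprs, Nars, Mars and Vars were that much lower on both. Cars and Wars were so on the array labelled RA plus D3V alone. Among all genes 17.0% on A2 and 15.5% on RA plus D3V were lower by that much. A link between match and difference was not tested. The E-box CACGTG, the site of Myc and Max, was in the promoters of Aars, Farsb, Iars, Tars and Ears2, against 8.09% of all genes. The palindromic NRF1 motif, named for a regulator of mitochondrial genes, was in those of Farsb, Kars, Tars, Iars2 and Mars2, against 5.19%. These matches describe letters in the window and say nothing of binding in these cells.

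Sources disagree on which treated array is which. By rank, each treated column of the authors' deposited value table equals the scanner file that carries the other treatment's label (Spearman 1 for both). Scanner labels are used below, and a direction belongs to the array so labelled, not necessarily to the compound. The control in that table equals none of the scanner files (Spearman 0.936 with the untreated one) and served as a second control. Its values were quantile normalized by the authors, whereas the treated values set against it are scanner signals. Differences from the second control, and the spread between controls, thus mix that processing with differences between arrays. All 3 arrays lay on 1 slide, no spot was saturated, and 46.0% to 46.8% of 59305 spots were well above background. Replicate spots of one probe had median SDs of 0.0606 to 0.0703 on the log2 scale. Across 17567 genes the controls differed with an SD of 0.306 on the log2 scale, and across the 35 measured synthetase genes with an SD of 0.171. The controls lay within 0.34 of each other in every measured synthetase gene, and 0 of 35 were 1.5-fold apart, against 6.53% of all genes.

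Of the 13 myeloid markers 12 were above background on each array, among them the granule enzyme gene Mpo and Hoxa9 itself. The Meis1 probe did not reach that mark on any array. Of the 12 measured markers 5 lay above untreated on A2 and 8 on RA plus D3V. On A2 and RA plus D3V, Mpo differed from untreated by -2.22 and -1.57, and the integrin gene Itgam by 2.37 and 2.31. In the same order Kit differed by 1.70 and 0.42, and Cebpa by -0.98 and 0.41. Elane differed by -0.85 and -0.96, and Csf1r by 0.69 and 0.59. Markers of other cells were present too. In the order untreated, RA plus D3V and A2, the log2 of the summed myeloid signal was 10.5, 9.98 and 9.76. In that order 6, 4 and 5 of 7 T and NK cell genes were above background (log2 of the sum 4.14, 3.56 and 4.07), with Ncr1 below it on every array. Of 7 erythroid genes 4, 4 and 5 were detected (1.97, 1.33 and 1.31). B cell genes numbered 5 of 6 on each array (4.26, 3.68 and 4.24), with Pax5 on none, and stromal and endothelial genes 3, 3 and 4 of 8 (1.09, 2.03 and 1.69), with Col3a1, Cdh5 and Cxcl12 on none. The myeloid and erythroid sums were lower on both treated arrays, and those of T and NK and of B cells on RA plus D3V, while on A2 the latter lay within 0.07 of untreated. Sums follow their brightest genes, and the median differences of single genes read otherwise. On A2 and RA plus D3V these were -0.07 and 0.28 for myeloid, -1.81 and -1.06 for T and NK, and 0.32 and 0.08 for B cell genes. Of 5 T and NK genes measured on A2, 3 were at least 2-fold lower, against 6.47% of all genes, and 1 lay above untreated. The part of these markers in the synthetase values was not tested. In bulk RNA, fewer cells of a type and less RNA per cell cannot be told apart.

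Signals are given as log2 of the spot's processed signal over its array's 75th percentile, so that 0 is that percentile and 1 unit is a factor of 2. They compare 1 probe between arrays, not genes with one another. Of the 36 genes 35 were well above background on all 3 arrays. The mitochondrial asparagine enzyme gene Nars2 was above it on none, with signals of -6.10 untreated, -5.95 on RA plus D3V and -6.18 on A2. Of the 36 probes 6 spanned more of the genome than their own length and so cross an exon junction (those of Dars, Farsb, Hars, Qars, Rars and Iars2). Probe positions are in mm9, for which no exon annotation was used.

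On the array labelled A2 most synthetase genes were lower than in untreated cells, and the mitochondrial ones by more. Of 15 measured mitochondrial genes 14 lay below untreated and 9 were at least 1.5-fold lower, with a median log2 difference of -0.64 (64.3% of the untreated signal). Of 20 cytosolic genes 16 lay below and 6 were at least 1.5-fold lower, with a median of -0.37 (77.6%). Among all 17292 genes measured on both arrays 52.2% lay below untreated, 17.0% were at least 1.5-fold lower and the median was -0.03. At 2-fold the numbers were 3 mitochondrial and 2 cytosolic genes, against 6.47% of all genes. No synthetase gene was at least 1.5-fold or 2-fold higher on this array, against 17.2% and 7.92% of all genes.

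On the array labelled RA plus D3V the cytosolic and mitochondrial genes had similar medians. Of 20 cytosolic genes 17 lay below untreated and 10 were at least 1.5-fold lower, with a median of -0.59 (66.2%). Of 15 mitochondrial genes 13 lay below and 5 were at least 1.5-fold lower, with a median of -0.55 (68.4%). Over all 17292 genes 51.8% lay below, 15.5% were at least 1.5-fold lower and the median was -0.03. At 2-fold there were 4 cytosolic genes and 1 mitochondrial gene, against 5.04% of all genes. The aspartate enzyme gene Dars was the 1 member at least 1.5-fold higher, against 17.7% of all genes, and none was 2-fold higher, against 7.82%. Both comparisons use the same untreated array, so its own error enters both. Against the second control 7 cytosolic and 11 mitochondrial genes were at least 1.5-fold lower on A2, against 19.6% of all genes. These left out Vars and Lars2 and took in Gars, Lars, Aars2, Fars2 and Vars2. On RA plus D3V there were 8 of each, against 17.5% of all genes, without Eprs and Vars and with Fars2, Hars2 and Pars2. Wars was then at least 1.5-fold higher on A2 (0.61), as were 2530 of all 17292 genes. No member was then that much higher on RA plus D3V, where Dars was at 0.58, against 2496 of 17292 genes.

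**Figure D1:**
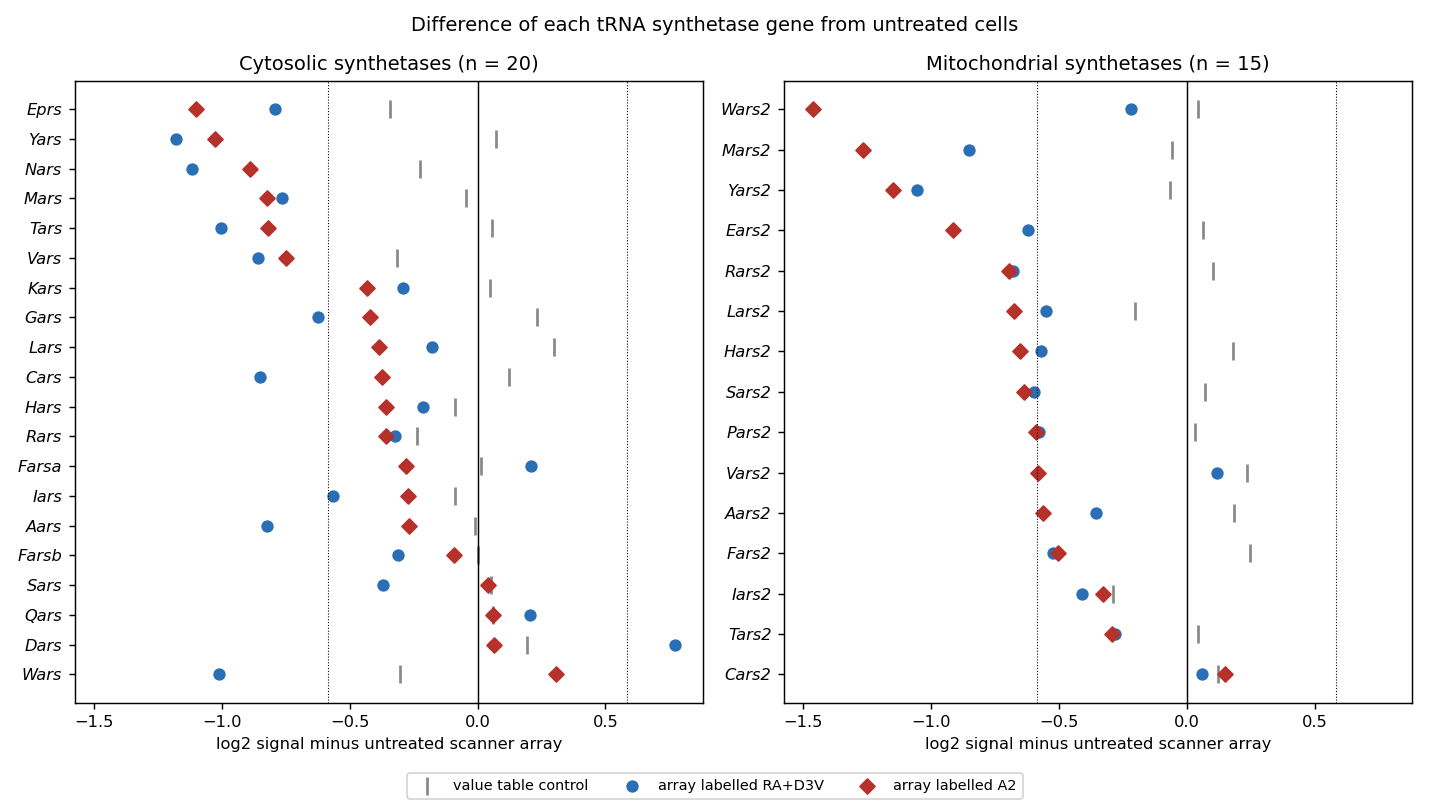
Each row is a synthetase gene, and the x axis is its log2 signal minus that on the untreated scanner array for the array labelled A2 (diamonds), the array labelled RA plus D3V (circles) and the value table's control (ticks), with dotted lines at 1.5-fold. Most diamonds and circles lie left of 0, while the control ticks stay within 0.34 of it and Wars, Wars2, Dars and Vars2 separate the treated arrays.

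The cytosolic genes past 1.5-fold on both treated arrays were Eprs, Yars, Nars, Mars, Tars and Vars. Yars, the tyrosine enzyme gene, had signals of -1.40 in untreated cells and -1.33 in the second control, against -2.58 on RA plus D3V and -2.43 on A2 (probe at chromosome 4, 128896792 to 128896851). Both treated values lay more than 1 unit under both controls, at 44.2% and 49.1% of the untreated signal. With normexp background correction, which models the local background, the differences were -0.43 and -0.46.

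Nars, which charges asparagine, read 4.13 and 3.90 in the controls, 3.01 on RA plus D3V and 3.24 on A2. The threonine enzyme gene Tars read 5.20 and 5.26 in the controls, 4.20 on RA plus D3V and 4.38 on A2 (chromosome 15, 11313527 to 11313586). In both genes the treated arrays lay clear of both controls, with RA plus D3V the lower.

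Eprs, the glutamate and proline enzyme and a member of the multi-synthetase complex, read 2.09 and 1.75 in the controls, 1.30 on RA plus D3V and 0.99 on A2 (chromosome 1, 187252093 to 187252152). Its controls were the furthest apart of the 35 measured genes, so its difference on RA plus D3V was -0.79 from one control and -0.45 from the other. Mars, the methionine enzyme gene, read 3.31 and 3.27 in the controls, 2.55 on RA plus D3V and 2.49 on A2. Vars, the valine enzyme gene, read 3.64 and 3.32 in the controls, 2.78 on RA plus D3V and 2.89 on A2, and against the second control its decreases of 0.54 and 0.43 no longer reached 1.5-fold.

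A second group of cytosolic genes was at least 1.5-fold lower on RA plus D3V and not on A2. It held Aars, Cars, Gars and Wars. The alanine enzyme gene Aars read 5.62 and 5.61 in the controls, 4.80 on RA plus D3V and 5.35 on A2 (chromosome 8, 113579376 to 113579434). Cars, for cysteine, read 5.37 and 5.49 in the controls, 4.52 on RA plus D3V and 4.99 on A2. Gars, which serves both compartments with glycine, read 8.16 and 8.39 in the controls, 7.53 on RA plus D3V and 7.73 on A2. The A2 array lay between the controls and RA plus D3V in these 3 genes, and in Gars the treated arrays were 0.20 apart. Against the second control Gars was at least 1.5-fold lower on A2 too (-0.65). Between the treated arrays Aars differed by 0.55 and Cars by 0.48, under 1.5-fold.

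The remaining cytosolic genes stayed within 1.5-fold of untreated on both treated arrays, apart from Dars. Hars, Kars, Lars, Rars, Iars and Farsb lay below untreated on both, from -0.09 (Farsb) to -0.43 (Kars) on A2 and from -0.18 (Lars) to -0.56 (Iars) on RA plus D3V. The 2 subunits of the phenylalanine enzyme went apart on RA plus D3V, with Farsa at 0.21 and Farsb at -0.31, while on A2 Farsa was at -0.28. Sars differed by 0.04 on A2 and -0.37 on RA plus D3V. Qars, the glutamine enzyme gene, differed by 0.06 and 0.20, within the spread between controls, and by -0.05 on A2 after quantile normalization. Dars read 1.03 and 1.23 in the controls, 1.80 on RA plus D3V and 1.10 on A2 (junction probe on chromosome 1, 130310284 to 130311944). It was 1.71-fold higher on RA plus D3V than untreated, with A2 between the controls.

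Within the cytosolic set, 8 enzymes (Eprs, Iars, Lars, Mars, Qars, Rars, Kars and Dars) sit in the multi-synthetase complex and 12 genes encode free enzymes. On RA plus D3V 8 of the 12 free genes were at least 1.5-fold lower (median -0.84) against 2 of the 8 complex genes (median -0.31) and 15.5% of all genes. On A2 the counts were 4 of 12 and 2 of 8, against 17.0% of all genes, with medians of -0.37 in both. The complex genes' share was thus not far from that of all genes on either array. The complex's scaffold genes were lower on both arrays. Eef1e1, which encodes the scaffold AIMP3, differed by -1.13 on A2 and -0.87 on RA plus D3V, Aimp2 by -0.63 and -0.61, and Aimp1 by -0.47 and -0.40.

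The mitochondrial genes past 1.5-fold on both treated arrays were Mars2, Yars2, Ears2, Rars2 and Sars2. Yars2, which charges mitochondrial tyrosine tRNA, read 2.79 and 2.73 in the controls, 1.74 on RA plus D3V and 1.64 on A2 (chromosome 16, 16307393 to 16307452). Its treated signals were 48.1% and 45.1% of untreated, and the controls lay 0.06 apart. Mars2, the mitochondrial methionine enzyme gene, read -0.06 and -0.12 in the controls, -0.91 on RA plus D3V and -1.32 on A2 (chromosome 1, 55295642 to 55295701). Both treated arrays were below both controls in each gene, and for Mars2 the A2 array was the lower by 0.41.

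Ears2 makes glutamyl-tRNA, which mitochondria also use as the precursor of glutaminyl-tRNA. It read 0.61 and 0.67 in the controls, -0.02 on RA plus D3V and -0.30 on A2. Qrsl1 and Gatc, subunits of the amidotransferase that completes that conversion, differed by -0.44 and -0.50 on A2 and by -0.58 and -0.47 on RA plus D3V. Rars2, for arginine, read 3.94 and 4.04 in the controls, 3.26 on RA plus D3V and 3.24 on A2. Sars2, for serine, read 1.77 and 1.84 in the controls, 1.17 on RA plus D3V and 1.13 on A2. In Rars2 and Sars2 the treated arrays were within 0.04 of each other.

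Wars2, Lars2, Hars2 and Pars2 passed 1.5-fold on A2 alone. In 3 of them the values on the treated arrays lay close to each other on either side of the threshold. Lars2 differed by -0.67 on A2 and -0.55 on RA plus D3V, Hars2 by -0.65 and -0.57, and Pars2 by -0.59 and -0.58. Aars2 (-0.56 and -0.35), Fars2 (-0.50 and -0.52), Iars2 (-0.33 and -0.41) and Tars2 (-0.29 and -0.28) stayed within 1.5-fold on both, although the second Iars2 probe read 0.08 and 0.51. Cars2 differed by 0.15 and 0.06, and by -0.01 and -0.04 in the authors' deposited value table. Vars2 read 0.10 and 0.33 in the controls, 0.22 on RA plus D3V and -0.49 on A2, so that A2 alone lay below both controls. Its other probe read -1.47 and -1.45 in the controls, -1.69 on RA plus D3V and -2.23 on A2, so A2 was the lowest array on both probes, while RA plus D3V lay below both controls on this probe alone.

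The tryptophan enzymes gave the widest split between the treated arrays. Wars, whose gene is known to be induced by interferon-gamma, read 1.53 and 1.22 in the controls, 0.52 on RA plus D3V and 1.83 on A2 (chromosome 12, 110104366 to 110104425). It was lower than both controls on RA plus D3V and higher than both on A2, there by 0.31 and 0.61, and the treated arrays differed by 1.32. A second, brighter Wars probe, left out because its spot was uneven on the RA plus D3V array, read 5.52 and 5.60 in the controls, 4.29 on RA plus D3V and 5.83 on A2. The order of the arrays was the same on both probes.

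Wars2, the mitochondrial tryptophan enzyme gene, went the other way. It read -1.65 and -1.61 in the controls, -1.87 on RA plus D3V and -3.11 on A2 (chromosome 3, 99023010 to 99023069). A2 was at 36.3% of untreated, the lowest share of any synthetase gene, and RA plus D3V at 86.0%. The second Wars2 probe read -2.20 and -2.61 in the controls, -2.92 on RA plus D3V and -3.43 on A2, so A2 was lowest on both probes while the RA plus D3V value was nearer to it (-0.71 from untreated). With normexp the A2 difference of Wars2 was -0.64. Those of Yars2 (-1.17) and Eprs (-1.10) were then further below, so the rank of Wars2 as lowest was not kept.

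**Figure D2:**
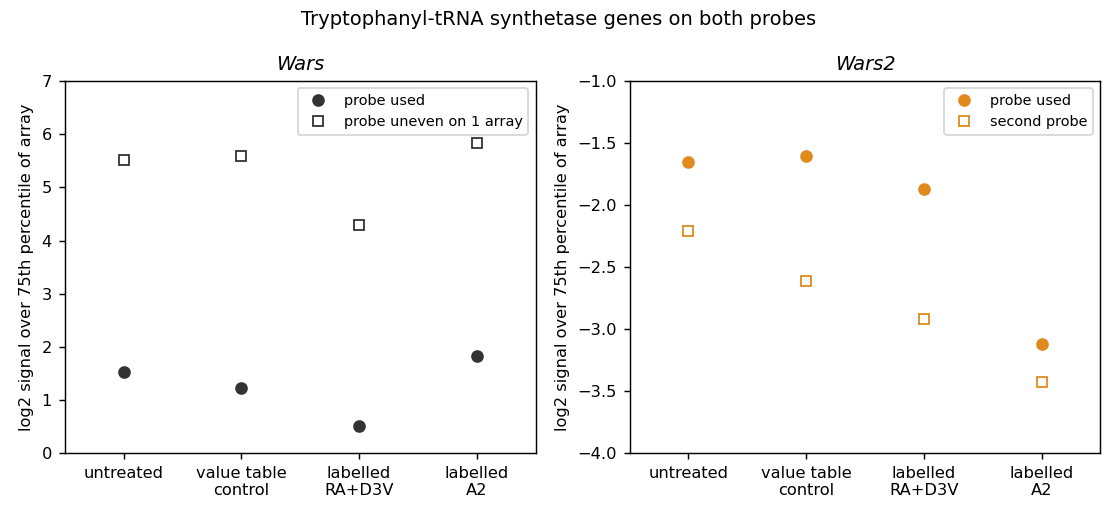
Points are log2 signals over the array's 75th percentile for Wars (left) and Wars2 (right) on the untreated array, the value table's control and both treated arrays, with filled and open symbols for the probes of each gene, whose heights cannot be compared. Wars is lowest after RA plus D3V and Wars2 after A2, on both probes.

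For 12 amino acids 1 cytosolic and 1 mitochondrial gene were measured, and these pairs were counted. On A2 the mitochondrial gene was the further below untreated in 9 of the 12 pairs, by more than the SD of 0.306 in 4 of them (Mars2, Rars2, Sars2 and Wars2). The cytosolic gene was lower by more than that in 2, Cars (-0.37 against 0.15) and Tars (-0.82 against -0.29). The median of mitochondrial minus cytosolic differences was -0.29. On RA plus D3V the mitochondrial gene was the lower in 5 of 12 pairs, by more than the SD in 3 (Hars2, Lars2 and Rars2), and the cytosolic gene by more than the SD in 5. Those were Aars, Cars, Tars, Vars and Wars, and the median was 0.14. The SD of 0.306 is that of single genes between the controls, not of differences within a pair. It serves here as a fixed mark only. Phenylalanine, glutamate and proline have shared genes and were not counted. On A2 Ears2 (-0.91) and Pars2 (-0.59) were less far below untreated than Eprs (-1.10), against the direction of most pairs, and Fars2 (-0.50) was further below than Farsa (-0.28) and Farsb (-0.09). With 1 array per condition these counts have no test. They hold against the untreated array, and against the second control some pairs changed order. On A2 Iars2 (-0.04), Lars2 (-0.47) and Yars2 (-1.08) were then less far below than Iars (-0.19), Lars (-0.68) and Yars (-1.10). Vars2 (-0.82) was then further below than Vars (-0.43). On RA plus D3V Lars2 (-0.35) was then less far below than Lars (-0.48). The other pairs kept their order.

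**Figure D3:**
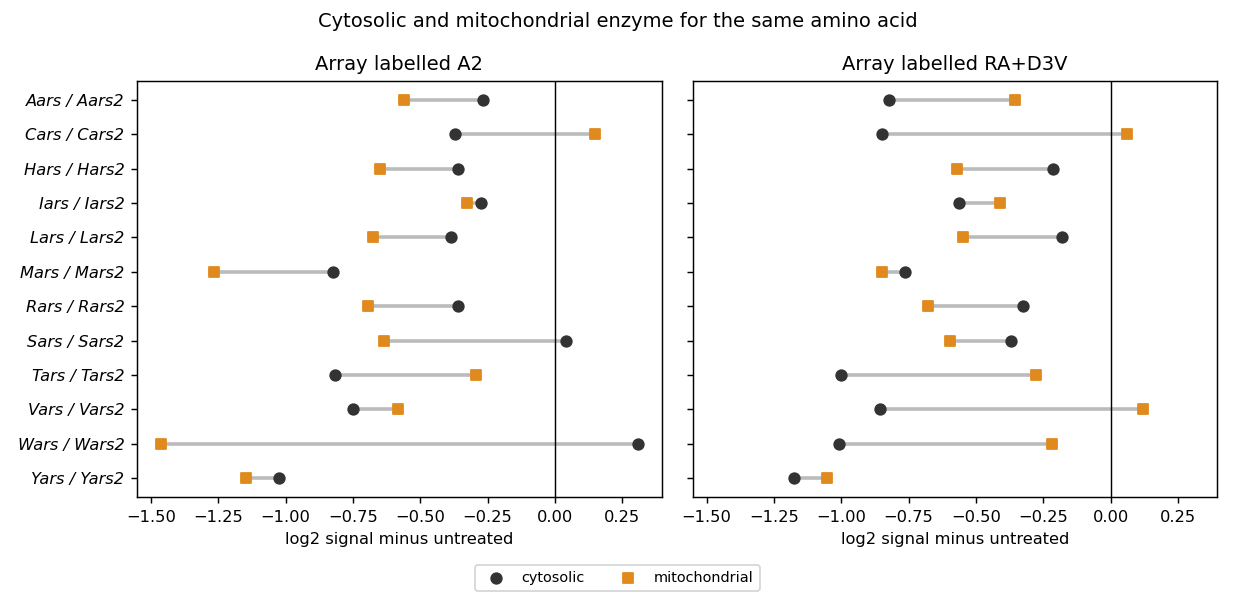
Each row is an amino acid with a cytosolic (circle) and a mitochondrial (square) enzyme gene, and the x axis is the log2 signal minus untreated on the array labelled A2 (left) or RA plus D3V (right). Squares lie left of circles in 9 of 12 rows on A2 and in 5 of 12 on RA plus D3V.

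Set directly against each other, the treated arrays differed little in most synthetase genes. A2 minus RA plus D3V had a median of 0.13 over the 20 cytosolic genes and -0.08 over the 15 mitochondrial genes, against -0.02 over 17643 genes, of which 52.1% lay below 0. On A2 Wars was at least 2-fold higher, and no other member was 1.5-fold higher, against 3.78% and 8.89% of all genes. Dars (-0.71), Vars2 (-0.70) and Wars2 (-1.25) were at least 1.5-fold lower and Wars2 2-fold lower, against 11.2% and 4.05% of all genes. Of the 12 free cytosolic genes 10 were higher on A2 than on RA plus D3V (median 0.21), and of the 8 complex genes 7 were lower (median -0.14).

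Genes of tRNA processing and of translation initiation were mostly lower too. Of 13 measured genes of tRNA processing and repair all lay below untreated on both arrays, against 52.2% and 51.8% of all genes. On A2 6 were at least 1.5-fold lower (median -0.51), against 17.0% of all genes, and on RA plus D3V 7 (median -0.60), against 15.5%. Rpp14 (-1.27 and -1.07) and Rpp30 (-1.23 and -1.06), subunits of RNase P, which trims the 5′ end of tRNA, were lowest. Pop5 (-0.11 and -0.16) was the highest on both. Of 15 initiation factor genes 4 and 5 were at least 1.5-fold lower (medians -0.44 and -0.52), led on A2 by the eIF2B subunits Eif2b3 (-1.18) and Eif2b4 (-1.03) and on RA plus D3V by Eif5 (-1.07) and Eif2b3 (-1.06). None of the genes measured in these lists was at least 1.5-fold higher, against 17.2% of all genes on A2 and 17.7% on RA plus D3V. Rpp25, of the tRNA processing list, was not counted, since it was well above background on RA plus D3V alone.

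By their medians, the lists of cytosolic elongation factors and of mitochondrial translation factors differed less. Of 5 cytosolic elongation factor genes 0 were 1.5-fold lower or higher on either array, with medians of -0.16 and -0.07. Among all genes 17.0% on A2 and 15.5% on RA plus D3V were at least 1.5-fold lower, and 17.2% and 17.7% higher. Eef1a1, whose product carries aminoacyl-tRNA, differed by -0.15 and -0.14. Of 9 measured mitochondrial translation factors 2 were at least 1.5-fold lower on each array, not far from the shares of all genes. They were Tsfm (-1.10 and -0.99) and Mtrf1 (-0.84 and -1.15), while the mitochondrial elongation factor gene Tufm differed by -0.17 and -0.07. Mrrf was not counted, being above background on the untreated array alone. The medians were -0.16 and -0.27, closer to that of all genes than those of the mitochondrial synthetases.

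Genes of amino acid supply and ATF4 targets had medians below untreated on both arrays. Of 20 measured genes 9 were at least 1.5-fold lower on A2 (median -0.52) and 11 on RA plus D3V (median -0.63), with 1 higher on each. Among all genes 17.0% and 15.5% were lower by that much, and 17.2% and 17.7% higher. Mthfd2, a mitochondrial folate enzyme, was the lowest of these 20 (-1.53 and -1.73). The cystine transporter gene Slc7a11 was not counted, being well above background untreated (-3.55) but not on A2 (-5.33) or RA plus D3V (-5.55). Asparagine synthetase, Asns, differed by -0.67 on A2 and -1.37 on RA plus D3V, and Atf4 itself by -0.50 and -1.09. The arginine and lysine transporter gene Slc7a1 differed by -1.15 and -0.89. Cebpb was higher on A2 (1.12) and Sesn2 on RA plus D3V (0.77). The 8 genes of the eIF2 kinase pathway, which hold the kinases, Gcn1l1, Impact and the phosphatase subunits Ppp1r15a and Ppp1r15b, had medians of 0.20 and 0.17. Eif2ak4, which encodes GCN2, differed by 0.29 and 0.38. The double-stranded RNA kinase gene Eif2ak2 was the 1 of these 8 at least 1.5-fold higher on each array (0.99 and 0.89), a share no larger than that of all genes. Reference genes lay between -0.26 and 0.35 on A2 and between -0.44 and 0.22 on RA plus D3V.

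**Figure D4:**
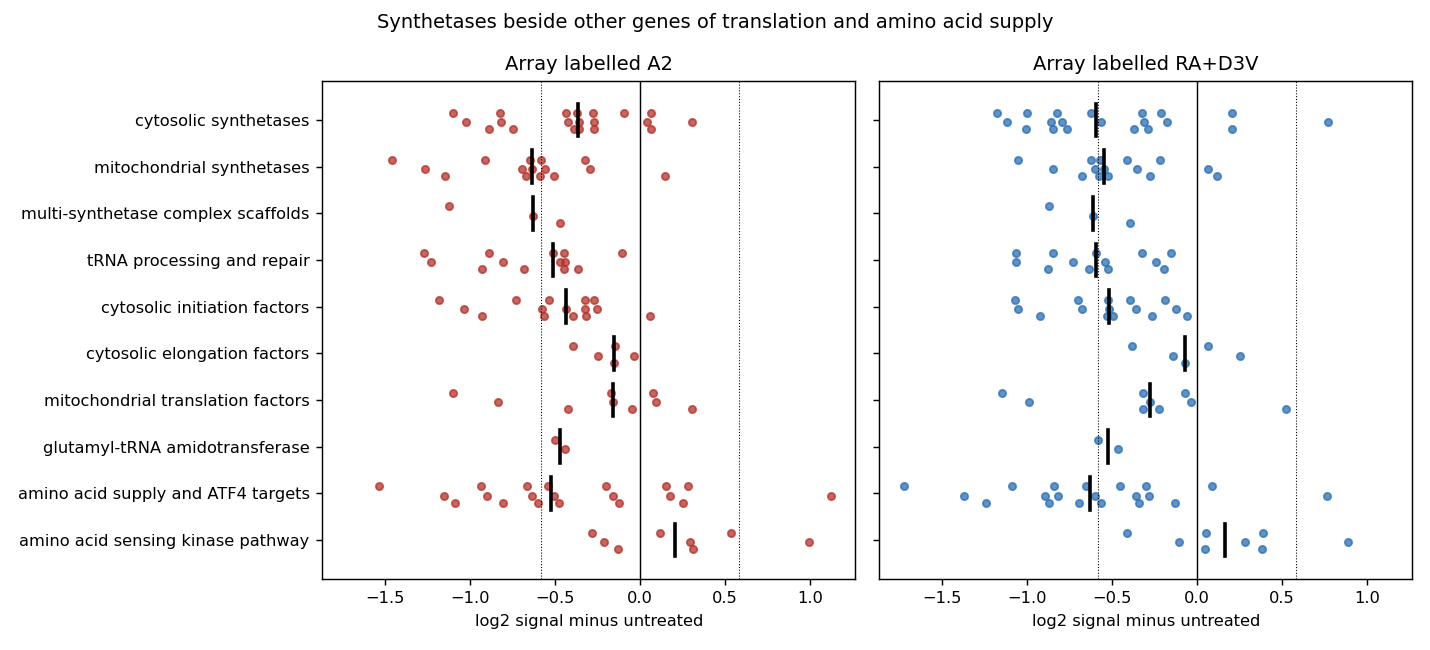
Points are genes measured on the untreated and the treated array, the x axis is the log2 signal minus untreated on the array labelled A2 (left) or RA plus D3V (right), bars mark list medians and dotted lines 1.5-fold. Synthetases, scaffolds, tRNA processing genes and ATF4 targets have medians of -0.37 or less, while elongation factors and the eIF2 kinase and phosphatase genes have medians between -0.16 and 0.20.

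The histidine enzyme genes lie side by side on opposite strands. The probes of Hars and Hars2 on chromosome 18, at 36926985 on the minus and 36951466 on the plus strand, differed from untreated by -0.36 and -0.65 on A2 and by -0.21 and -0.57 on RA plus D3V.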

How the data were processed

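RNA of 3 cultures was labelled with Cy3 and hybridized to 3 Agilent one-colour arrays, 1 per condition. The scanner files were made with Agilent Feature Extraction 11.5.1.1, per the submitters' processing notes. Per the file headers, the deposited processed signal is a background-subtracted, detrended spot intensity that is not scaled across arrays, and probe positions are in mm9. The deposited flags are 0 or 1. The authors' deposited value table is a linear intensity with equal sorted values in its columns.

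Control spots and 25 probes marked uneven on any array were left out, which left 55657 probes. Each array's log2 signal was set against its 75th percentile, spots of a probe were averaged, and the brightest probe by mean log2 signal stood for its gene as named in the file (11145 names had more than 1 probe). The 36 genes had 45 such probes. A gene counted as measured when well above background on both arrays, and as higher or lower at 1.5-fold. With 1 array per condition no test was run.

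Members and lists were chosen with earlier results of these data known. All members could be named, and of each other list the 2 highest and 2 lowest genes per comparison with untreated. Atf4, Tufm, Eif2ak4, Rpp25, Slc7a11 and Mrrf fell outside this rule and were chosen after their values were seen. Alternatives were normexp (offset 50, limma 3.58.1), 2 other scalings, other probe rules, the value table, its control and a 2-fold threshold. Keeping uneven probes was added after seeing the data. The steps were tested on simulated data. Planned protein comparisons were not run, and 1 marker gene and 1 promoter match are not reported here.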

Additional observations from a re-analysis of the deposited data

Results flagged for a closer look

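Wars lay on opposite sides of the untreated value in the treated arrays, at 0.31 on A2 and at -1.01 on RA plus D3V, so that these arrays were 1.32 apart. The value on A2 is about as large as the gap between the controls, where the value table's control minus untreated was -0.30. With 1 array per condition the difference was not tested.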

How the results depend on the processing

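No paired analysis was possible because each condition has 1 array. The cytosolic and mitochondrial medians kept their sign in all 3 comparisons under every alternative run. In the value table alternative each treated column was assigned to the scanner file of equal rank, not by its own label. Its sign for A2 minus RA plus D3V is thus no check on the labels, and by the table's own labels the treated arrays would change places. The mitochondrial median on A2 moved from -0.64 to -0.78 with the authors' value table and -0.75 with its control. The cytosolic median on RA plus D3V moved from -0.59 to -0.47 with the median over a gene's probes, -0.44 with the value table and -0.48 with its control. The count of mitochondrial genes at least 1.5-fold lower on RA plus D3V was 5, against 8 with the value table and 8 with its control. At 2-fold the cytosolic and mitochondrial counts were 2 and 3 on A2, 4 and 1 on RA plus D3V, and 0 and 1 for A2 below RA plus D3V, where normexp also gave 1 mitochondrial gene. Some alternatives left most member values fixed by construction. Asking for detection on all 3 arrays changed none, keeping uneven probes changed Wars alone, and the median over probes changed only genes with several probes. These count among the 805 member values under alternatives, so the counts overstate stability. Of the 805, 786 moved by less than the SD between controls, 19 by more, and 0 values past 1.5-fold changed sign. Smaller values did, those of Dars, Qars, Sars, Cars2 and Vars2 near 0 among them. Over all probes so did Aars on A2 (0.41), through its undetected second probe, and Iars2 on RA plus D3V (0.05). Genes at least 1.5-fold lower in every such setting were 4 of 6 cytosolic (Eprs, Mars, Nars, Tars) and 6 of 9 mitochondrial (Ears2, Hars2, Mars2, Rars2, Wars2, Yars2) on A2, and 6 of 10 (Cars, Gars, Mars, Nars, Tars, Wars) and 2 of 5 (Rars2, Yars2) on RA plus D3V. The causes were not tested. The number of arrays limits the precision.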

Other observations

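Where a synthetase gene had a further probe nearer its 5′ end, that dimmer probe often gave a less negative difference, a pattern noticed after the values were seen. On A2 this held for 6 of 7 measured upstream probes and on RA plus D3V for 5 of 8, with several from Farsa. The share over all genes with several probes was not computed, and the probe used is by rule the brightest. The 1 downstream probe, of Aars and not well above background, was also less negative, by 1.37 on A2 and 1.00 on RA plus D3V. Position and dimness thus cannot be told apart. The median difference between upstream and used probe was 0.39 over all 7 and 0.41 over all 8 on the log2 scale. On RA plus D3V the third Farsa probe, 2689 bases upstream of the one used, differed by 1.33 against 0.21, and the second Iars2 probe by 0.51 against -0.41. The second Cars2 probe differed by 0.54 on A2 and 0.64 on RA plus D3V, against 0.15 and 0.06 on the probe used.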
